A study of Mus musculus with 28 samples.

Results

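The 10 genes described here encode the main heat shock chaperones of the cytosol and the mitochondrion of the mouse: Hspa1a, Hspa1b, Hspa8, Hsp90aa1, Hsp90ab1, Dnajb1, Hspb1, Hsph1, Hspe1 and Hspd1. They were taken by name, because heat shock genes are often read as a sign of stress during cell isolation, and all 10 were found among the 19375 genes with a value in every table. The 28 libraries came from cells sorted from the lungs of wild-type C57BL/6 mice aged 8 weeks. There were 6 libraries labelled AEC2 (type 2 alveolar epithelial cells), 6 labelled AEC1 (type 1 alveolar epithelial cells), 9 labelled ILC2 (group 2 innate lymphoid cells) and 7 labelled basophil. AEC2 and AEC1 each had 2 libraries of mice given papain plus FK506, 2 of mice given papain alone and 2 of untreated mice. ILC2 had 3 of each, and the basophil set had 3, 3 and a single untreated library whose title names controls 1 and 2. Papain, a plant protease that provokes allergic inflammation of the airways, was given into the nose at 50 µg per day. FK506 (tacrolimus), an inhibitor of the phosphatase calcineurin, was injected intraperitoneally, 0.2 mg per day for 3 days and, after a gap of 2 days, for another 3 days together with papain. The labels do not say whether replicates came from separate animals, so the tests measure only the spread between these libraries. Every library passed through tissue removal and cell sorting, and cells that had not been isolated were not analysed here, so the share of any level that arose during isolation was not measured.

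Heat shock proteins bind unfolded or newly made proteins and keep them from clumping until they fold. When unfolded protein builds up, the heat shock factor HSF1 is released from its chaperone partners, forms trimers and binds heat shock elements, which are repeats of the letters GAA facing in alternating directions, in front of its target genes. Some of these genes, such as Hspa1a and Hspa1b, are known for strong induction by heat, proteotoxic stress and tissue digestion, while others, such as Hspa8 and Hsp90ab1, are made in most cells at all times.

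Promoters, here 250 bases before to 50 bases after the transcription start, were available from RefSeq (GRCm38.p6) for 7 of the 10 genes. The names without an entry were Hspa8, Hsp90aa1 and Hsp90ab1. The heat shock element was searched as a pair of units (GAANNTTC or TTCNNGAA, each the same on both strands) and as a run of 3 units (GAANNTTCNNGAA or its reverse complement TTCNNGAANNTTC, which each contain both pairs). These 7 genes have 10 promoters in the table. The pair was found in 7 of the 10 promoters (6 genes), against 15.1% of 32851 promoters. The run of 3 units was found in 4 of the 10 (Hsph1, Hspe1 and Hspd1), against 0.603% of promoters. The Hsph1 windows overlap and hold the same run, as do the Hspe1 window and an Hspd1 window on opposite strands. The 10 promoters are therefore not independent. Of the 7 genes, Dnajb1 had no match in its windows, which says only that these letters are absent there. The promoters of 4 genes are printed because they show the nearly identical Hsp70 pair, the gene with the widest ratio between cell type means (Hspb1), and a gene with 2 overlapping runs of 3 units (Hspe1). Capitals mark the unit letters of the matches.
Hspa1a, chr17:34972107-34972406, minus strand: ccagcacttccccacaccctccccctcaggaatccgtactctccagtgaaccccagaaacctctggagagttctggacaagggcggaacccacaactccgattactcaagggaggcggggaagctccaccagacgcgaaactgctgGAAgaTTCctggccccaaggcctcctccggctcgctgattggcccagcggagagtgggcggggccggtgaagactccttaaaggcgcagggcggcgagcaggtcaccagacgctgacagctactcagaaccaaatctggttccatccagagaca
Hspa1b, chr17:34959189-34959488, minus strand: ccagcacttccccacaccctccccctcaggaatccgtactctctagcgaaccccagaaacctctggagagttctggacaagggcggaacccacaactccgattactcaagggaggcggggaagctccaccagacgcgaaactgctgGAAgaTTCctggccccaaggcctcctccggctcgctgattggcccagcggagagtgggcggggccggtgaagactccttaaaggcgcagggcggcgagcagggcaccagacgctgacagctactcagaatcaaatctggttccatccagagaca
Hspb1, chr5:135887669-135887968, plus strand: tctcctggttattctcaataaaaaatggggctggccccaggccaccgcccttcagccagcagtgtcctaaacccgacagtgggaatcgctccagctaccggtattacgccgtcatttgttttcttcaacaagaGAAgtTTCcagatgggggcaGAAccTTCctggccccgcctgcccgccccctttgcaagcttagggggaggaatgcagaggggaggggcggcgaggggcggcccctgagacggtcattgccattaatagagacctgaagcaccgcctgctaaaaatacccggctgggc
Hspe1, chr1:55087898-55088197, plus strand: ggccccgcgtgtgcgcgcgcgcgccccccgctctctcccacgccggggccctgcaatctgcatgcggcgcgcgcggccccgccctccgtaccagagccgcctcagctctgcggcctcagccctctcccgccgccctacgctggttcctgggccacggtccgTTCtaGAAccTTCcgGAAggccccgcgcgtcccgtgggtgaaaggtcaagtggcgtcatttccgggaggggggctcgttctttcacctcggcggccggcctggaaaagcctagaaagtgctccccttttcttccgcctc

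The Hspa1a and Hspa1b promoters differed at 4 of 300 bases, and each held 1 pair of units that begins 104 bases before the start. The 2 genes lie on the same strand with starts 12918 bases apart. Hspb1 held 2 pairs, which begin 117 and 97 bases before the start. Hspe1 held 3 overlapping pairs that begin between 89 and 79 bases before the start and form 2 overlapping runs of 3 units. Hspe1 and Hspd1 lie head to head on chromosome 1, with annotated starts 111 bases apart and first bases that overlap. Of the Hspd1 windows, 55087883-55088182 holds the same letters on the other strand. The window 55088194-55088493, at the annotated start of Hspd1, holds no match.

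Levels are given in CPM as deposited, that is, reads of a gene scaled to the size of its library. The kit reads the 3′ ends of transcripts, so CPM are not divided by transcript length, and the sets of libraries were normalised separately, so levels set side by side between AEC, ILC2 and basophil libraries are a description. The listed values summed to between 986818.7 and 992526.5 CPM in AEC1 and between 989854.5 and 992311 CPM in AEC2, but only to between 519768 and 636598 CPM in ILC2 and between 612433.8 and 672356.8 CPM in the basophil libraries. Depth could be estimated for 11 AEC libraries, at 1206891 to 1336103 reads in AEC2 and 847763 to 975388 reads in AEC1, and is unknown for the others. In bulk samples, fewer cells of a type and less RNA per cell cannot be told apart. The labels were checked against marker genes. The 7 AEC2 markers summed to between 104798 and 115464 CPM in AEC2. The 5 airway markers summed there to between 2935.3 and 21167.3 CPM, against 54.3 to 827.1 CPM in AEC1. The 8 AEC1 markers summed to between 497.1 and 855.6 CPM in AEC1, less than the 1537 to 3919.1 CPM in AEC2, while 8 fibroblast and smooth muscle markers summed to between 5810.2 and 14557.7 CPM in AEC1 and to between 0 and 6.7 CPM in AEC2. The 9 ILC2 markers summed to between 560 and 4190 CPM in ILC2. The lowest of these, papain plus FK506 replicate 3, stood apart, with Gata3 and Il1rl1, which define ILC2, listed at 0, and with macrophage and monocyte markers at 7217 CPM. The remaining 8 libraries of ILC2 held these markers at 98 to 954 CPM. In the libraries labelled basophil, the 8 basophil markers summed to between 0 and 287.8 CPM, with the defining Mcpt8 and Fcer1a listed at 0 in all 7. The 10 macrophage and monocyte markers summed there to between 1049 and 8912.3 CPM, and the 9 ILC2 markers to between 0 and 2206.5 CPM. The papain plus FK506 replicate 7 held Gata3 at 141.8, Il1rl1 at 99.5 and the macrophage gene Csf1r at 55.9 CPM. The rest of the set held Gata3 and Il1rl1 at 0.4 CPM or less and Csf1r at 619.2 CPM or more. AEC1 and basophil are therefore used below as the names on the labels.

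A 0 in these tables does not always mean absence. Gapdh, a glycolytic enzyme that every cell uses, was listed at 0 in 5 of 6 AEC2, 6 of 6 AEC1, 5 of 9 ILC2 and 3 of 7 basophil libraries. A comparison of annotated transcripts gave a measure of how far reads could fit more than one gene. Of the 50-base windows in the last 300 bases of the transcript, 82.9% occur unchanged in a transcript of another gene for Gapdh. The share was 67.3% for Hspa8, 43.8% for Hspe1 and 18.3% for Hspb1, and it was 0 for the other 7 heat shock genes, Hspa1a and Hspa1b included. How the authors counted reads that fit several genes is not stated in the sources used here, so the levels of Hspa8, Hspe1 and Hspb1 are uncertain.

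**Figure D1:**
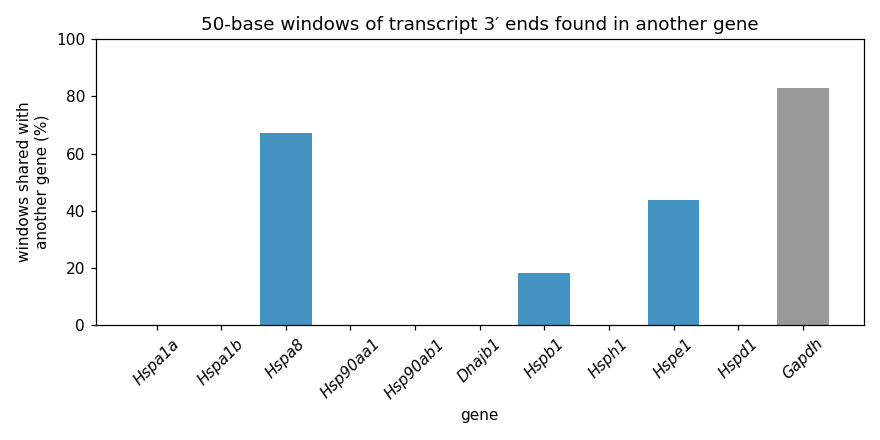
Share of 50-base windows in the last 300 bases of each gene's transcript that occur unchanged in a transcript of another gene, in percent, for the 10 heat shock genes (blue) and Gapdh (grey). Hspa8 stands at 67.3%, Hspe1 at 43.8%, Hspb1 at 18.3% and Gapdh at 82.9%, and the other 7 genes stand at 0.

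Hsp90ab1 (chr17:45567775-45573271), which encodes the constitutive cytosolic Hsp90 chaperone, had the highest level of the 10 genes in 28 of 28 libraries. It averaged 1909.8 ± 452.8 CPM in AEC2 (SD, n = 6), 4342.6 ± 1325.2 CPM in AEC1 (n = 6), 2200.3 ± 1166.6 CPM in ILC2 (n = 9) and 1551.6 ± 340.5 CPM in the basophil libraries (n = 7). AEC1 stood above the other 3 means by more than their SD, and the ILC2, AEC2 and basophil means differed from their neighbours in that order by less than the larger SD of each pair. Hsp90aa1 (chr12:110690605-110702728), the stress-inducible Hsp90, averaged 410.6 ± 148.3 CPM in AEC2, 1097.5 ± 717.6 CPM in AEC1, 105 ± 39.4 CPM in ILC2 and 141.5 ± 123.2 CPM in the basophil libraries. The 6 AEC2 libraries and the 6 AEC1 libraries all lay above the 9 ILC2 libraries, whose highest value was 185 CPM.

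The cytosolic Hsp70 genes did not share 1 order. Hspa1a (chr17:34969190-34972156) and Hspa1b (chr17:34956436-34959238), which encode nearly the same inducible Hsp70 protein, had their highest means in AEC1, at 541.9 ± 246.9 and 362.5 ± 180.9 CPM, and their lowest in ILC2, at 88 ± 112.2 and 64.6 ± 55.9 CPM. In AEC2 they averaged 170.8 ± 126.4 and 139.3 ± 97 CPM, and in the basophil libraries 180.1 ± 113.4 and 99.4 ± 86.7 CPM. The AEC2, basophil and ILC2 means of both genes were separated by less than the larger SD of each pair. Hspa1a exceeded Hspa1b in 19 of 28 libraries, among them 6 of 6 AEC1 libraries and 3 of 9 ILC2 libraries.

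Hspa8 (chr9:40800984-40810087), the constitutive Hsp70, had the reverse order. It averaged 273.2 ± 121.6 CPM in ILC2 and 202.1 ± 102 CPM in the basophil libraries, but 35.2 ± 42.9 CPM in AEC2 and 13.5 ± 13.7 CPM in AEC1, with 2 AEC1 libraries listed at 0. In reads, these values rested on 1 to 54 reads in 5 AEC2 libraries and 0 to 28 reads in AEC1. The highest AEC2 value, 118 CPM in the untreated replicate 1, has no recovered read count. Hspa8 is also the member with the largest share of ambiguous 3′ windows, and the part of this in its low AEC values was not tested.

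Among the partners of Hsp70, Dnajb1 (chr8:83608193-83612653), an Hsp40 that delivers clients to Hsp70, averaged 50.4 ± 40.4 CPM in AEC2, 68.9 ± 47 CPM in AEC1, 73.4 ± 59.9 CPM in ILC2 and 49.9 ± 30.3 CPM in the basophil libraries, all within 1 SD of each other. Hsph1 (chr5:149614287-149636376), the Hsp110 that exchanges nucleotide on Hsp70, averaged between 6.9 and 27.5 CPM in the 4 cell types and was listed at 0 in 3 of 6 AEC2, 2 of 6 AEC1, 4 of 9 ILC2 and 3 of 7 basophil libraries.

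Hspb1 (chr5:135887919-135889563), a small heat shock protein that holds unfolding proteins and binds actin filaments, had the widest ratio between its highest and lowest cell type mean. It averaged 551.2 ± 100.2 CPM in AEC1 and 88.1 ± 49.8 CPM in AEC2. In the basophil libraries it averaged 69 ± 72.3 CPM and in ILC2 12.1 ± 24.9 CPM, with 5 of 9 ILC2 libraries listed at 0. The lowest AEC1 library, at 418.3 CPM, lay above the highest library of every other cell type.

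The mitochondrial chaperonin is a barrel of HSP60 (Hspd1, chr1:55077835-55088243) closed by a lid of HSP10 (Hspe1, chr1:55088132-55091307). Hspe1 averaged 398.2 ± 135.6 CPM in AEC2 and 460.9 ± 368.3 CPM in AEC1, against 52.6 ± 31.4 CPM in ILC2 and 50.3 ± 49.6 CPM in the basophil libraries. Hspd1 was lower, at 34.1 ± 46.9 CPM in AEC2, 73.6 ± 102.7 CPM in AEC1, 26 ± 31 CPM in ILC2 and 29 ± 27.6 CPM in the basophil libraries, and the 4 means were separated by less than the larger SD of each pair. Although the genes share a promoter region, Hspe1 exceeded Hspd1 in 12 of 12 AEC libraries, in 8 of 9 ILC2 libraries and in 3 of 7 basophil libraries. Neither CPM is scaled to length, and the transcripts annotated for Hspe1 and Hspd1 have 774 and 2423 bases. Of the 3′ windows, 43.8% are ambiguous for Hspe1 and 0% for Hspd1, and the part of this in the difference was not tested.

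Summed over the 10 genes, the level ranged from 2302.8 to 4187 CPM in AEC2, from 5368.7 to 10486.1 CPM in AEC1, from 932 to 5016 CPM in ILC2 and from 1075.4 to 2921.8 CPM in the basophil libraries. In deposited CPM the AEC1 sums did not overlap those of the other 3 sets. As a share of all listed CPM in a library, the 10 genes took 0.232 to 0.423% in AEC2, 0.541 to 1.061% in AEC1, 0.152 to 0.792% in ILC2 and 0.176 to 0.451% in the basophil libraries, so on this scale AEC1 overlapped ILC2. Hsp90ab1 made up between 46.2 and 99.9% of the sum in a library. AEC1 had the highest mean for 8 of the 10 genes, and ILC2 for Hspa8 and Dnajb1. With TMM factors over all 28 libraries, or after rescaling to the genes that every table lists, the number was 7 of 10, with Hsph1 highest in ILC2.

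**Figure D2:**
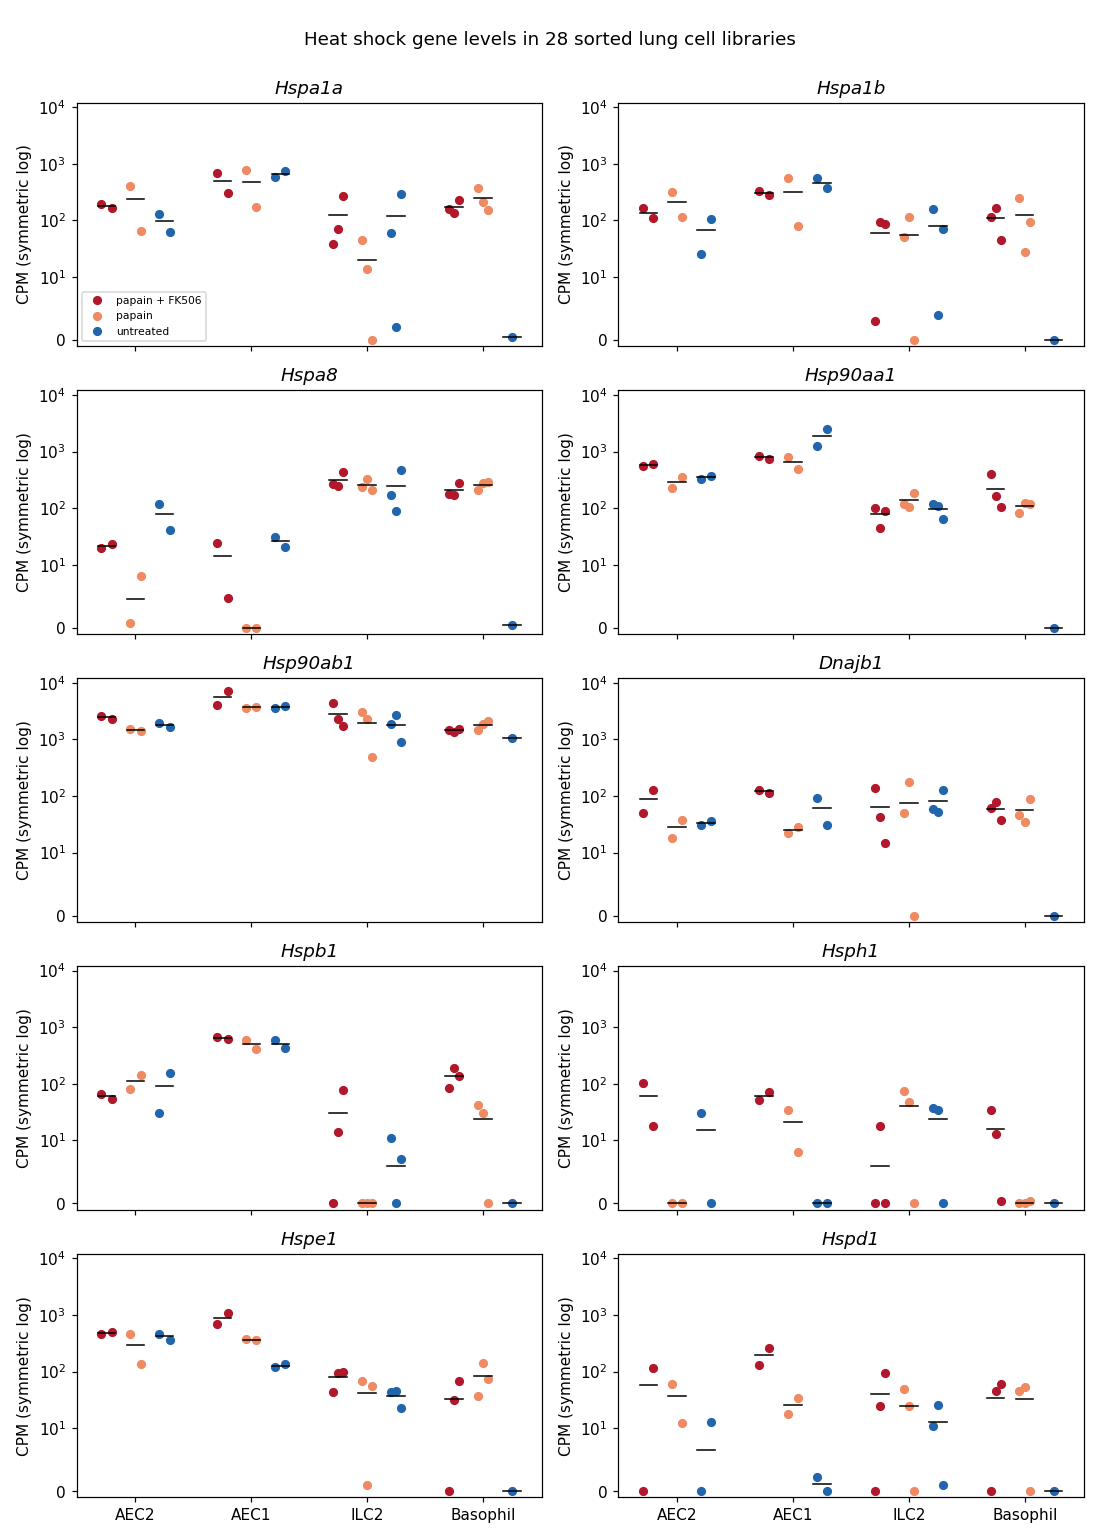
Level of each heat shock gene in CPM, on an axis that is linear below 10 CPM and logarithmic above, in the 4 cell types; each point is 1 library, each line a group mean, and within a cell type papain plus FK506 (dark red) stands left of papain (orange) and untreated (blue). Hsp90ab1 is highest in every library, Hspb1 is highest in the 6 AEC1 libraries, and the untreated basophil library lies at or near 0 for every gene but Hsp90ab1.

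The AEC sets share a code in their file names and listed values that sum to nearly the same total, which allowed a test between AEC2 and AEC1 with treatment as a term. Of the 10 genes, 4 were lower in AEC2 and 0 were higher. Across all 9841 genes tested, 8.69% were lower and 4.75% higher (13.4% in all). The members' median log2 change was -0.91, against -0.45 for all tested genes.

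Hspb1 ranged from 31 CPM over a median of 72.9 CPM to 152.4 CPM in AEC2, and from 418.3 over 588.4 to 659.3 CPM in AEC1. The 6 AEC2 libraries all lay below the 6 AEC1 libraries, and the log2 difference was -2.70 (SE 0.49; adjusted p by limma 3.79e-04). Hsp90ab1 ranged from 1433.6 over 1814.2 to 2565 CPM in AEC2 and from 3619.5 over 3833.7 to 7021.8 CPM in AEC1. It too showed no overlap, and its log2 difference was -1.08 (SE 0.18, limma adjusted p 1.70e-04). These 2 genes, and no other member, had separate groups; across all genes the groups were separate in this direction for 4.90%.

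Hsp90aa1 ranged from 227 over 362.8 to 614 CPM in AEC2 and from 497.2 over 818.7 to 2479.5 CPM in AEC1. The groups overlapped, and the log2 change was -1.20 (SE 0.35, limma adjusted p 0.0241). Hspa1a ranged from 62.3 over 150 to 405 CPM in AEC2 and from 173.3 over 635.6 to 764.5 CPM in AEC1, and differed by -1.68 on the log2 scale (SE 0.52, limma adjusted p 0.0306). Both calls were lost with edgeR's quasi-likelihood test on recovered reads, at adjusted p of 0.123 for Hsp90aa1 and 0.0906 for Hspa1a, without the AEC2 untreated replicate 2, at 0.0507 and 0.0688, and without the AEC1 untreated replicate 2, at 0.0760 and 0.0845. That of Hspa1a was also lost with no filter on low values, at 0.0523, and without the AEC2 papain replicate 2, at 0.0589, without the AEC1 untreated replicate 1, at 0.0640, without the AEC1 papain replicate 1, at 0.0680, and without the AEC1 papain plus FK506 replicate 1, at 0.0557. Hspa1b missed the threshold, with a log2 difference of -1.37 (SE 0.59) and an adjusted p of 0.123 by limma, and passed without the AEC1 papain replicate 2 (adjusted p 0.0371). The other 5 genes had adjusted p of 0.368 or more, and their intervals all contained 0: Hspa8 changed by 1.30 (95% interval -0.69 to 3.29), Hspe1 by 0.19 (-0.74 to 1.13), Dnajb1 by -0.30 (-1.76 to 1.17), Hsph1 by -0.49 (-2.83 to 1.85) and Hspd1 by -0.75 (-3.07 to 1.57) on the log2 scale.

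Markers of other cells moved with this difference. Besides the 8 fibroblast and smooth muscle markers, of which 6 to 8 were listed at 0 in AEC2 libraries and 0 to 2 in AEC1 libraries, the 5 mesothelial markers summed to between 5 and 158.2 CPM in AEC2 and between 1415.5 and 5069.5 CPM in AEC1. Airway markers lay in the other direction, at 2935.3 to 21167.3 CPM in AEC2 and 54.3 to 827.1 CPM in AEC1. The part of all these cells in the heat shock gene difference was not tested.

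**Figure D3:**
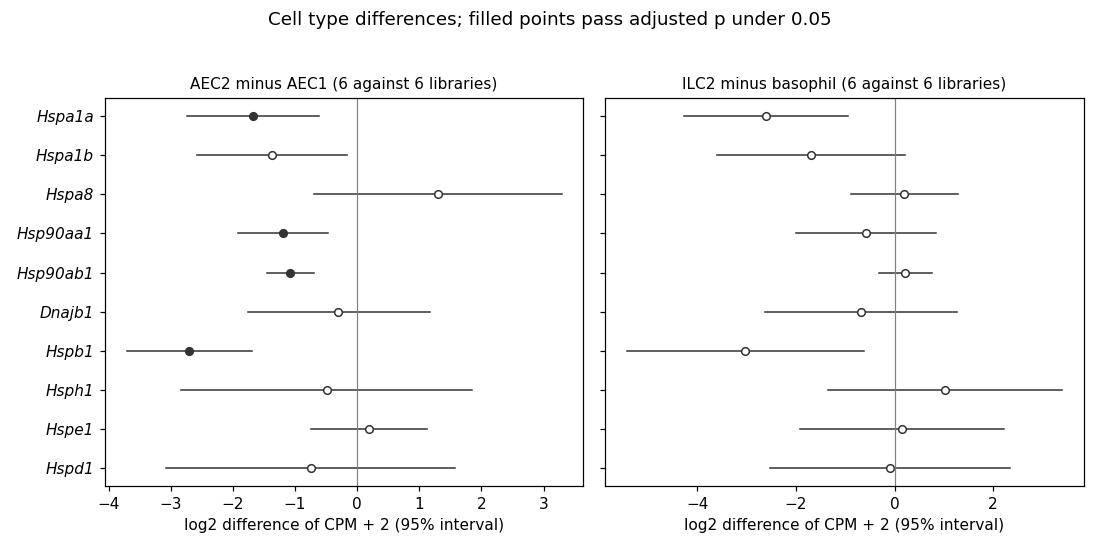
Log2 difference of CPM + 2 with its 95% interval for each heat shock gene, AEC2 minus AEC1 on the left and ILC2 minus basophil-labelled libraries on the right; filled points pass limma's test at an adjusted p under 0.05. Hspb1, Hsp90ab1, Hsp90aa1 and Hspa1a are filled on the left, all below 0, and no point is filled on the right.

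Related genes were counted in the same comparison, where 4.75% of all 9841 tested genes were higher and 8.69% lower in AEC2. Of 27 other HSF1 targets and cytosolic co-chaperones, 23 were tested, 2 were higher and 2 lower in AEC2. The higher ones were Ubb, a polyubiquitin gene, at 159.5 CPM in AEC2 and 20.4 CPM in AEC1 (log2 change 3.64, SE 0.84, adjusted p 0.00431), and Hspa2, a further Hsp70, at a mean of 29.8 CPM in AEC2 and listed at 0 in AEC1 (adjusted p 0.0375). The lower ones were Serpinh1, the collagen chaperone HSP47, listed at 0 in AEC2 and at a mean of 66.3 CPM in AEC1 (adjusted p 0.00521), and the heat shock factor gene Hsf2, listed at 0 in AEC2 and at 29.2 CPM in AEC1 (adjusted p 0.0444). Hspa2, Serpinh1 and Hsf2 met the 10 CPM filter only through the set where they were above 0, so each could pass only in that direction. The part of fibroblasts and smooth muscle cells in the Serpinh1 values was not tested. Of 14 endoplasmic reticulum chaperones, all tested, 2 were lower and 0 higher in AEC2: Hsp90b1, the Hsp90 of that compartment, by -1.42 (SE 0.35, adjusted p 0.00687) and Hspa5, its Hsp70, by -1.28 (SE 0.26, adjusted p 0.00131) on the log2 scale. Of 13 tested subunits of the TRiC chaperonin and prefoldin, which fold actin and tubulin, and of 9 tested mitochondrial chaperones and proteases, 0 passed in either direction.

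Immediate early genes, which tissue digestion is also known to induce, gave 2 lower and 0 higher of 17 tested. Across all genes 8.69% were lower and 4.75% higher. Klf4 averaged 46.8 CPM in AEC2 and 731.8 CPM in AEC1 (log2 change -4.40, SE 0.69, adjusted p 7.43e-05), and Klf2 89.8 CPM in AEC2 and 478.1 CPM in AEC1 (-3.45, SE 0.88, adjusted p 0.00928). Of 7 tested oxidative stress genes, Mt1, a metallothionein, was higher in AEC2, at 946.8 CPM against 417.5 CPM in AEC1 (log2 change 1.41, SE 0.34, adjusted p 0.00544), and 0 were lower.

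ILC2 and basophil libraries were compared under papain with or without FK506, 6 against 6, and 0 of the 10 heat shock genes passed in either direction, while 0.640% of 7814 genes were higher and 3.35% lower in ILC2 (3.99% in all). Limma's test gave an unadjusted p under 0.05 for 2 of the 10 genes, against 17.5% of all genes. Hspa1a averaged 72.8 CPM in ILC2 and 210.1 CPM in the basophil libraries, and differed by -2.61 on the log2 scale (SE 0.84, limma adjusted p 0.0547). It stood just outside the threshold and passed with median-ratio size factors (limma adjusted p 0.0459). It also passed without the ILC2 papain replicate 1 (0.0439), the ILC2 papain plus FK506 replicate 3 (0.0173) or the basophil papain plus FK506 replicate 7 (0.0440). That basophil library held the ILC2 genes Gata3 and Il1rl1 at 141.8 and 99.5 CPM, and the part of such cells was not tested. Hspb1 averaged 15.2 CPM in ILC2 and 80.5 CPM in the basophil libraries, and differed by -3.03 on the log2 scale (SE 1.22, adjusted p 0.163). Hsp90ab1 had the narrowest interval, with a log2 change of 0.22 (95% interval -0.32 to 0.76), and without the ILC2 papain replicate 3 the change was 0.74 and passed (adjusted p 0.0229). Only ILC2 replicate 3 shares the code in its file names with the basophil libraries; with it alone kept for ILC2, the log2 change was -3.06 for Hspa1a (adjusted p 0.363) and -1.74 for Hspb1 (0.718), and Hsp90ab1 was below rather than above the basophil level (0.534).

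In the same comparison related lists were counted, beside 3.35% of all 7814 tested genes lower and 0.640% higher in ILC2. Of 17 immediate early genes tested, 4 were lower in ILC2 and 0 higher: Ier3 (log2 change -2.81, SE 0.47, adjusted p 3.51e-06), Egr1 (-2.60, SE 0.46, adjusted p 1.83e-05), Socs3 (-2.17, SE 0.41, adjusted p 6.87e-05) and Klf4 (-1.54, SE 0.41, adjusted p 0.0135). Of 7 oxidative stress genes, 3 were lower in ILC2 and 0 higher: Mt1 (-5.49, SE 0.73, adjusted p 4.42e-09), Mt2 (-4.50, SE 0.70, adjusted p 5.75e-07) and Hmox1, heme oxygenase (-3.73, SE 0.74, adjusted p 2.05e-04). Of 24 HSF1 targets and co-chaperones, 13 TRiC and prefoldin genes, 7 mitochondrial and 13 endoplasmic reticulum chaperones tested, 0 passed. Whether the lists differ from the heat shock genes was not tested. Within ILC2, Mt1, Mt2, Ier3 and Egr1 also passed by file code, while Socs3, Klf4 and Hmox1 did not. Mt1 averaged 607.7 CPM in replicate 3, which shares its code with the basophil libraries, against 10.2 CPM in replicates 1 and 2. Mt2 averaged 583.7 against 13.3 CPM, Ier3 850.7 against 89.7 CPM and Egr1 906 against 137.8 CPM. The part of the file code in the list differences was not tested.

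The treatments were compared within each cell type. For papain plus FK506 against papain, the question was whether calcineurin inhibition under the allergen was accompanied by a change in these genes. In none of the 4 cell types did a heat shock gene pass limma's test. The share of all genes that passed was 0% in AEC2 (0 of 6719, 284 at an unadjusted p under 0.05), 0% in AEC1 (0 of 8178, 496 unadjusted), 0.0159% in ILC2 (1 of 6271) and 0% in the basophil libraries (0 of 5853, 354 unadjusted). DESeq2 on recovered reads passed 67 genes in AEC2 and 84 in AEC1, with 0 heat shock genes in either.

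In AEC1, the point estimates of all 10 heat shock genes were above 0. For 7 of them the 2 libraries of each treatment did not overlap, against 19.5% of all genes in that direction. Hspe1 stood at 703.6 and 1075.7 CPM with papain plus FK506, against 369.5 and 362.9 CPM with papain. The log2 change of Hspe1 was 1.09 (SE 0.46, 95% interval 0.02 to 2.17, limma adjusted p 0.815). Hspd1 stood at 128.4 and 259.5 CPM with papain plus FK506, against 18 and 33.8 CPM with papain (log2 change 2.64, SE 1.42, adjusted p 0.902). The papain plus FK506 libraries were thus the higher ones for both parts of the mitochondrial chaperonin, within a spread that left the difference below the threshold. Dnajb1 stood at 126 and 114.4 CPM with papain plus FK506, against 22.2 and 28.7 CPM with papain (2.02, SE 0.93, adjusted p 0.825). Hsp90ab1 stood at 4111 and 7021.8 CPM, against 3636 and 3767.4 CPM with papain (0.39, SE 0.34, adjusted p 0.902). Hspb1, Hsph1 and Hspa8 were the other 3 genes with separate groups, and the papain libraries of Hspa8 were both listed at 0. The median log2 change of the 10 genes was 0.74, and that of all tested genes 0.08. Mesothelial markers summed to 1415.5 and 1979.3 CPM with papain plus FK506, against 2291.3 and 3328.6 CPM with papain, and their part in these values was not tested.

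In AEC2, 6 of the 10 genes had separate groups with papain plus FK506 higher, against 16.7% of all genes, and 1, Hspb1, with it lower, against 10.7%. Hsp90aa1 stood at 565.1 and 614 CPM with papain plus FK506, against 227 and 350.8 CPM with papain (log2 change 1.07, SE 0.54, adjusted p 0.909). Hsp90ab1 stood at 2565 and 2304.3 CPM with papain plus FK506, against 1527.5 and 1433.6 CPM with papain (0.73, SE 0.35, adjusted p 0.909). Both Hsp90 genes were higher in each papain plus FK506 library than in either papain library, but with 2 libraries a group the test passed neither. Hspb1 stood at 66.6 and 53.9 CPM with papain plus FK506, against 79.3 and 145.4 CPM with papain (-0.81, SE 1.10, adjusted p 0.925). Dnajb1, Hspe1, Hspa8 and Hsph1 were the other 4 genes with papain plus FK506 higher, and Hsph1 was listed at 0 in both papain libraries. The inducible Hsp70 genes overlapped: Hspa1a stood at 192.4 and 169 CPM with papain plus FK506, and at 405 and 64.9 CPM with papain. The median log2 change of the 10 genes was 0.84, and that of all tested genes 0.06. The airway marker Scgb1a1 stood at 9424.6 and 9923.9 CPM with papain plus FK506, against 2362.4 and 19332.8 CPM with papain. The part of airway cells in these values was not tested.

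In ILC2, Hsp90aa1 was the only member with separate groups. It stood at 102, 45 and 89 CPM with papain plus FK506, against 121, 107 and 185 CPM with papain (log2 change -0.75, SE 0.95, adjusted p 0.974), and 2.79% of all genes were separate in this direction. Hsp90ab1 stood at 4424, 2314 and 1720 CPM with papain plus FK506, against 3064, 2312 and 481 CPM with papain. The groups overlapped, with the replicate 3 library lowest in both (0.87, SE 0.31, adjusted p 0.910), and within replicates 1 and 2 alone the log2 change was 0.09 and did not pass either. Hspa1a stood at 38, 70 and 270 CPM with papain plus FK506, against 45, 14 and 0 CPM with papain (2.92, SE 1.49, adjusted p 0.910), and within replicates 1 and 2 alone the log2 change was 0.80 (adjusted p 0.922). Hspb1 stood at 0, 14 and 77 CPM with papain plus FK506 and was listed at 0 in the 3 papain libraries (adjusted p 0.910). The highest values of Hspa1a and Hspb1, 270 and 77 CPM, both belong to papain plus FK506 replicate 3, the library with macrophage and monocyte markers at 7217 CPM, and the part of these cells was not tested.

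In the basophil libraries, Hspb1 stood at 83.3, 191.5 and 135.4 CPM with papain plus FK506, against 41.6, 31 and 0 CPM with papain. The groups did not overlap, as for 5.77% of all genes in this direction, and the log2 change was 3.20 (SE 1.28, 95% interval 0.47 to 5.92, adjusted p 0.760). Markers of lung tissue moved with it: the 7 AEC2 markers summed to 9825.1, 7234.4 and 2094.7 CPM with papain plus FK506, against 1273.5, 612.4 and 920.2 CPM with papain, and the 8 fibroblast and smooth muscle markers to 2419.4, 2565.6 and 1756.3 CPM with papain plus FK506, against 559.3, 304.7 and 149 CPM with papain. Their part in the Hspb1 values was not tested. The change of the other 8 tested genes ranged from -2.20 (SE 1.42) for Hspe1 to 0.77 (SE 0.68) for Hsp90aa1, with adjusted p of 0.837 or more. Hsph1 did not reach the minimum of 10 CPM in 3 libraries and was not tested; it stood at 34.5, 13.2 and 0.4 CPM with papain plus FK506, against 0, 0 and 0.3 CPM with papain.

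**Figure D4:**
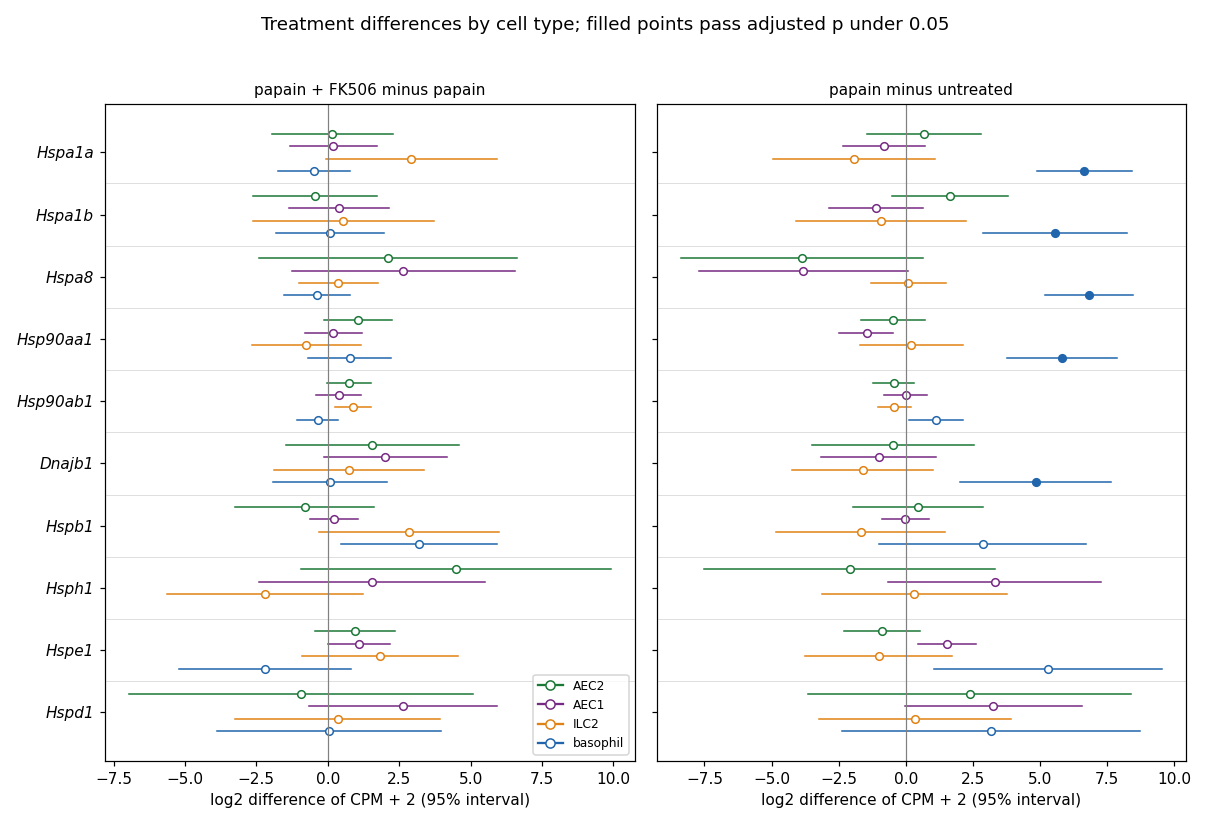
Log2 difference of CPM + 2 with its 95% interval for each heat shock gene in AEC2, AEC1, ILC2 and basophil-labelled libraries, for papain plus FK506 minus papain (left) and papain minus untreated (right); filled points pass limma's test at an adjusted p under 0.05. No point is filled on the left, and on the right the filled points belong to the basophil set, whose untreated group is 1 library.

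Among related genes under FK506, 0 passed in any cell type from any list: HSF1 targets and co-chaperones (19 tested in AEC2, 21 in AEC1, 20 in ILC2, 19 in the basophil set), TRiC and prefoldin (12, 12, 13 and 13), mitochondrial chaperones and proteases (8, 9, 5 and 6), endoplasmic reticulum chaperones (13, 14, 13 and 12), immediate early genes (16, 16, 17 and 17) and oxidative stress genes (6, 7, 7 and 7). Interaction terms tested whether the FK506 difference was unequal between cell types. Between AEC2 and AEC1, 0 of 9841 genes passed limma's test (566, or 5.75%, at an unadjusted p under 0.05), and 0 heat shock genes reached even an unadjusted p under 0.05. Between ILC2 and the basophil set, 0 of 7814 genes passed (311, or 3.98%, unadjusted, among them Hspa1a, 3.34 with SE 1.66 and adjusted p 0.985).

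Papain was compared with no treatment in the same fits, which share the papain libraries with the FK506 comparisons. No heat shock gene passed in AEC2, AEC1 or ILC2, where 0% of 6719, 0% of 8178 and 0% of 6271 genes passed (15, 761 and 234 at an unadjusted p under 0.05). In AEC1 the 3 genes with the lowest p differed in opposite directions. Hsp90aa1 stood at 786.7 and 497.2 CPM with papain, against 1232.3 and 2479.5 CPM in untreated AEC1 (log2 change -1.46, SE 0.43, limma adjusted p 0.442). Hspe1 stood at 369.5 and 362.9 CPM with papain, against 119 and 134.6 CPM in untreated AEC1 (1.54, SE 0.46, limma adjusted p 0.442). Hspd1 stood at 18 and 33.8 CPM with papain, against 2.2 and 0 CPM in untreated AEC1 (3.27, SE 1.42, limma adjusted p 0.531). The chaperonin pair was thus listed higher and the inducible Hsp90 lower with papain in both libraries. Mesothelial markers summed to 2291.3 and 3328.6 CPM with papain, against 5069.5 and 4057.5 CPM in untreated AEC1. AEC2 markers summed to 1998.1 and 1333.7 CPM with papain, against 5750.7 and 8444.9 CPM in untreated AEC1, and airway markers to 73.1 and 176.3 CPM with papain, against 827.1 and 499.2 CPM. The part of these cells was not tested. DESeq2 on recovered reads passed these 3 genes, at -1.62 (adjusted p 0.00352), 1.49 (0.00893) and 4.54 (0.0485), among 305 genes in all, and edgeR passed 15 genes and none of the 10.

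In AEC1, 3 genes had separate groups with papain higher (Hsph1, Hspe1 and Hspd1; 19.2% of all genes) and 3 with papain lower (Hspa8, Hsp90aa1 and Dnajb1; 14.2%). In AEC2 the separate genes were Hspa1b, higher (13.6% of all genes), and Hspa8 and Hsp90ab1, lower (2.40%). Hsp90ab1 stood at 1527.5 and 1433.6 CPM with papain, against 1971 and 1657.5 CPM in untreated AEC2 (log2 change -0.45, SE 0.35, adjusted p 1.00). Hspa8 stood at 0.8 and 8.2 CPM with papain, against 118 and 41.6 CPM in untreated AEC2 (-3.88, SE 2.05, adjusted p 1.00), and in AEC1 it was listed at 0 in both papain libraries, against 31.4 and 20.7 CPM in untreated AEC1. Its listed value was therefore lower with papain in each AEC set, but neither difference passed (in AEC1 -3.82, SE 1.69, limma adjusted p 0.538). Where reads were recovered, Hspa8 rested on 0 to 28 reads in AEC1 and 1 to 54 in AEC2, and 67.3% of its 3′ windows are ambiguous. In ILC2, 0 of the 10 genes had separate groups (7.34% of all genes in either direction), and Hspa1a stood at 45, 14 and 0 CPM with papain, against 61, 2 and 292 CPM in untreated ILC2 (-1.93, SE 1.49, adjusted p 0.985). Within replicates 1 and 2 alone its log2 change was 0.63 (adjusted p 1.00). The untreated replicate 3, at 292 CPM, also held airway markers at 33197 CPM, which summed to between 0 and 129 CPM in the other 8 ILC2 libraries. The difference between AEC2 and AEC1 in the response to papain passed for 0 of 9841 genes (454 unadjusted). For Hspe1 it was -2.37 (SE 0.85, limma adjusted p 0.972).

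In the basophil set, 5 of the 9 tested heat shock genes were higher with papain than in the single untreated library, against 21.1% of 5853 genes. The untreated library had values above 0 for 2002 genes, the fewest of the 28, and the median log2 change of all tested genes was 3.05. A gene was tested if it reached 10 CPM in 3 libraries, so a gene seen only in the single untreated library could not enter. The spread in these fits comes from the papain and papain plus FK506 libraries alone. Hspa1a stood at 374.2, 215.5 and 150 CPM with papain, against 0.5 CPM in the untreated library (log2 change 6.66, SE 0.83, limma adjusted p 4.41e-05). Hspa8 stood at 212.2, 278.6 and 293.9 CPM with papain, against 0.5 CPM (6.84, SE 0.77, adjusted p 1.81e-05). Hspa1b, Hsp90aa1 and Dnajb1 were listed at 0 in the untreated library, with adjusted p of 0.00473, 4.29e-04 and 0.0149, and Dnajb1 lost its call without the papain replicate 6 (adjusted p 0.0510). Without that library Hspb1 gained a call (adjusted p 0.0271), as did Hspe1 without the papain plus FK506 replicate 7 (adjusted p 0.00523). Hsp90ab1 stood at 1468.7, 1890.5 and 2099.8 CPM with papain, against 1074.4 CPM in the untreated library (1.13, SE 0.48, adjusted p 0.101), a change below the median of all genes. Since 55.5% of all genes lay higher in the 3 papain libraries than in this library, and it has no replicate, papain and the state of this library cannot be told apart.

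In related lists, the basophil set had a median log2 change of 3.74 for 19 tested HSF1 targets and co-chaperones. It was 4.63 for 13 TRiC and prefoldin genes, 2.69 for 6 mitochondrial chaperones and proteases and 3.00 for 12 endoplasmic reticulum chaperones. For 17 immediate early genes it was 0.51 and for 7 oxidative stress genes 1.42, against 3.05 for all tested genes. Hspa4, an Hsp110 relative, averaged 164.5 CPM with papain and was listed at 0 untreated (log2 change 6.42, SE 1.07). For AEC2, AEC1 and ILC2 under papain, 0 passed in each of these lists.

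ILC2 replicate 3 of each treatment carries another code in its file names than replicates 1 and 2, and this code is a term in the ILC2 fits. Of the 10 genes, 1 was lower in replicate 3 and 0 were higher, against 3.70% and 1.42% of 6271 genes (5.12% in all). Hsp90ab1 stood at 1720, 481 and 908 CPM in the replicate 3 libraries of papain plus FK506, papain and untreated, and at between 1903 and 4424 CPM in the other 6 ILC2 libraries (log2 change -1.85, SE 0.27, limma adjusted p 1.02e-05). Markers of other cells moved with the code. In replicate 3 of papain plus FK506, papain and untreated, AEC2 markers summed to 3237, 6005 and 4314 CPM, against 0 to 477 CPM in the other 6 libraries. Fibroblast and smooth muscle markers summed to 575, 931 and 2403 CPM, against 0 to 227 CPM, and endothelial markers to 195, 492 and 618 CPM, against 15 to 128 CPM. Neutrophil markers summed to 117, 636 and 2746 CPM, against 0 to 47 CPM. The part of these cells was not tested. The replicate 3 library of papain had 6 of the 10 genes listed at 0, and its mean deviation from the ILC2 average over the 10 genes was -2.26 on the log2 scale. With only replicate 3 kept for ILC2, the difference between ILC2 and basophil libraries in the response to FK506 passed for 323 genes, Hspa1a (7.72, adjusted p 0.00105) and Hsp90ab1 (2.77, adjusted p 0.0149) among them. That fit has 1 ILC2 library in each treatment and assumes that it varies like the basophil libraries. Between its ILC2 libraries, papain plus FK506 and papain, ILC2 markers summed to 560 and 4057 CPM and macrophage and monocyte markers to 7217 and 954 CPM, and their part in these calls was not tested.

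Taken as the mean over the 10 genes after centring on each cell type, the profile across 28 libraries had a mean absolute value of 0.70 on the log2 scale. The search covered 4269 genes with at least 10 CPM in at least 14 libraries, a number that includes heat shock genes. The nearest other genes by mean absolute difference were Hdgf (0.50), Eif5b (0.50), S100a10 (0.53), Rps15 (0.54) and Emp3 (0.55). For Hspa1a alone, whose profile had a mean absolute value of 1.30, they were Chp1 (0.75), Slc25a5 (0.80), Ndufv3 (0.83), Cd53 (0.85) and Baz2b (0.85). None of the 5 genes nearest to either profile belongs to a chaperone list used here. The 10 members were left out of the search for the mean profile, in which the untreated basophil library stood at -3.76. Whether chaperone genes vary together was not tested.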

How the data were processed

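Sorted lung cells of 28 libraries were profiled from 10 ng of RNA with a Lexogen 3′ QuantSeq kit, per the labels' protocols. STAR 2.7.0c, featureCounts 1.6.0, mm10 and GRCm38.p6 are named, with no role, in the submitters' processing notes. The authors deposited CPM with 1 decimal for 18 libraries. For 9 ILC2 libraries and the AEC2 untreated replicate 1 the deposited values are whole numbers, treated as a score, that is, CPM rounded by the authors. What CPM are divided by and the handling of strand and of reads that fit several genes are not given in the sources used here.

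Genes with at least 10 CPM in 2 (AEC) or 3 (ILC2, basophil) libraries were tested. CPM were divided by TMM factors (edgeR 4.0.16), 2 was added, and limma 3.58.1 (trend) was run on the log2 values in R 4.3.3, two-sided, with Benjamini-Hochberg adjustment over all tested genes at 0.05. Fold changes on this scale understate low genes. Each cell type shared 1 spread; ILC2 fits held the file code as a term, and comparisons between cell types held treatment. In 11 AEC libraries, 100% of values below 25 CPM came out as whole reads within 0.1 read. On those reads edgeR and DESeq2 1.42.0 were run as alternatives. Other alternatives were a pseudocount of 1, no filter, other scalings, left-out libraries and a replicate block. The code was tested on simulated data. The 10 members, the related lists and the rules for naming (the members, up to 4 passing genes a list, the 5 nearest genes) were chosen with earlier results of these data known. No library held values identical to another's.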

Additional observations from a re-analysis of the deposited data

Results flagged for a closer look

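A gene was put here when every library of 1 cell type moved one way under papain plus FK506 against papain and every library of another cell type moved the opposite way. Hsp90aa1 had a log2 change of 1.07 in AEC2, where both papain plus FK506 libraries lay above both papain libraries, and of -0.75 in ILC2, where the 3 papain plus FK506 libraries lay below the 3 papain libraries. Hspb1 had a log2 change of -0.81 in AEC2 and of 3.20 in the basophil libraries, again with no overlap on either side. In neither cell type did either gene pass limma's test, and the difference between these cell types was not tested. AEC2, fibroblast and smooth muscle markers were also higher with papain plus FK506 in the basophil libraries, and their part in Hspb1 was not tested. Of the Hspb1 3′ windows, 18.3% are ambiguous. Hspb1 was also separate in the higher direction in AEC1, at 659.3 and 618.1 CPM with papain plus FK506, against 588.7 and 418.3 CPM with papain (log2 change 0.21). For AEC2 and AEC1 the difference in response was tested, and for Hspb1 it was -1.06 on the log2 scale (SE 1.07, limma unadjusted p 0.344) and did not pass.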

How the results depend on the processing

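Over the alternatives run, 362 of 412 counts of passing genes stayed within 1.5 times the reported count. Of 2012 log2 changes of single heat shock genes, 1986 kept their side of the threshold, 12 lost and 14 gained a call. After a call 0 changed sign, but the 1986 include changes of sign in genes without a call. Hspd1 between ILC2 and basophil libraries (-0.10), for example, ranged from -0.83 to 0.60 over 17 alternatives. The causes of the changes below were not tested. For papain against untreated ILC2 (0 genes), deposited CPM with no scaling gave 3, median-ratio size factors 2, no batch term 1 and the replicate block 2 genes. For papain plus FK506 against papain in ILC2 (1 gene), deposited CPM gave 2 and replicates 1 and 2 alone 0. On recovered reads, papain against untreated AEC1 (0 genes) gave 15 with edgeR and 305, with 3 heat shock genes, with DESeq2; papain plus FK506 against papain (0 genes) gave 84 in AEC1 and 67 in AEC2 with DESeq2. AEC2 against AEC1 (1322 genes, 4 heat shock genes) gave 816 genes and 2 heat shock genes with edgeR, run after the data had been seen and without the AEC2 untreated replicate 1. ILC2 against basophil libraries (312 genes) gave 31 with no filter and 1 with ILC2 replicate 3 only, and 1 heat shock gene with median-ratio size factors. The ILC2 minus basophil response to FK506 (0 genes) gave 323 genes and 2 heat shock genes with ILC2 replicate 3 only.

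Leaving out each library in turn gave 0 to 2 genes for papain against untreated ILC2, 0 to 2 for papain plus FK506 against papain in ILC2, 0 to 5 in the basophil set and 0 to 1 in AEC2, and 0 to 2 for papain against untreated AEC2. It gave 2 to 5 heat shock genes for AEC2 against AEC1, 178 to 596 genes and 0 to 1 heat shock gene for ILC2 against basophil libraries, and 128 to 405 genes and 1 to 2 heat shock genes for the ILC2 file code. The responses gave 0 to 1 gene for AEC2 minus AEC1 under papain and 0 to 2 for ILC2 minus basophil under FK506.

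Shared replicate numbers were not taken to pair the samples. Same-numbered ILC2 deviations correlated at 0.05 to 0.23, and 6 of 9 libraries correlated best with their own number. With 2 pairs each, untreated and papain AEC2 correlated at 0.45, and the other AEC pairs at -0.02 to 0.02. With the replicate block, no other count passed 1.5 times its reported value. No paired analysis was possible for the basophil set because its groups share no numbers.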
